A study of Mus musculus with 20 samples.

Results

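Macrophages that had entered GL261 tumours from the blood were compared with microglia of normal mouse brain, to ask how close recruited cells come to the resident state and which parts of it they lack. The comparison rests on 6 of the 20 libraries of the series: 3 of bone marrow-derived macrophages (BMDM) from GL261 tumours, numbered 80766, 80767 and 80769 in their titles, and 3 of normal brain microglia, numbered 67572, 67573 and 67574. They were picked by their titles, not by a measured value. Another 3 libraries of microglia, taken by their numbers to be from the same 3 tumours, and 5 of blood monocytes served as reference points. Polyadenylated RNA of sorted cells was read with a Smart-Seq kit, and all mice were of the C57BL/6 strain background. GL261 is a transplantable glioma line of that strain.

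The tumour cells were sorted, per the labels' protocols, as CD45+ CD11b+ Ly6C- Ly6G- cells of Flt3:Cre Rosa26:mTmG mice. In these mice cells that descend from Flt3-expressing blood progenitors turn from red TdTomato to green GFP, so BMDM were taken as GFP+ TdTomato- and tumour microglia as GFP- TdTomato+. The reporter marks descent, so BMDM can hold any CD11b+ cell of that descent that passed the gate. Normal microglia are labelled as coming from normal brain and the monocytes as Ly6C-high cells of blood, and the labels do not give their gates. The only tumour protocol in the labels, shared by all records, describes mice injected at 5 to 6 weeks of age with DF1 cells carrying RCAS-PDGFB-HA and RCAS:shP53, which is another glioma model. The labels leave out how the GL261 tumours were made, whether a library pools animals, and the ages of the other mice.

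Microglia are the resident macrophages of the brain. They descend from early yolk sac precursors, renew themselves locally and hold a gene programme that rests on signals of the brain, among them TGF-beta and ligands of the CSF1 receptor, and on transcription factors such as Sall1, Mef2c and Smad3. Ly6C-high monocytes leave the blood with the help of the receptor Ccr2, lose Ly6C in the tissue and turn into macrophages whose expression depends on where they settle.

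Levels are counts scaled to a common library size (CPM). Values of BMDM are always in the order 80766, 80767, 80769 and those of normal microglia in the order 67572, 67573, 67574. Unless another comparison is named, a log2 fold change is BMDM against normal microglia from edgeR's quasi-likelihood fit over all 20 libraries, and a gene is called higher or lower where the Benjamini-Hochberg adjusted p over all 15363 genes tested is under 0.05. A gene counts as held within 2-fold where the whole 95% interval of its log2 fold change lies between -1 and 1, which is a stricter statement than a missed call.

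The libraries held 18850626 to 22088979 counts in BMDM, 26421803 to 30391652 in normal microglia, 18113450 to 20934656 in tumour microglia and 5077787 to 7801073 in monocytes. Tumour 80769 stood apart in both of its sorted fractions: per gene, its BMDM counts differed from those of 80766 and 80767 by a chi-square per degree of freedom of 245.8 and 212.9, while the latter pair differed by 40.06. The sum of 11 marker genes of border-associated macrophages was 4659.8 CPM in its BMDM, 1199 and 1244 CPM in the other two, and 47.9 to 75.3 CPM in normal microglia, with Cd209f at 0 in BMDM. Blood monocytes held 2090 to 2317 CPM of the same markers, more than BMDM 80766 and 80767. F13a1, also in the monocyte identity list, and Pf4, also a platelet marker, weigh on that sum. Their mean log2 CPM was 10.84 and 8.12 in monocytes and 7.0 and 6.68 in BMDM. The monocyte sum is therefore no sign of a border-associated state. Markers of oligodendrocyte precursors or glioma cells summed to 223 to 455 CPM in BMDM, 546 to 1081 CPM in tumour microglia and 8.40 to 26.7 CPM in normal microglia, with all 10 genes of that list seen in BMDM and 8 of them called higher than in normal microglia. Neutrophil markers averaged 31.8 CPM in BMDM and were at least 22.5 CPM in each, with Mpo and Camp at 0, and were at 1498 to 23025 CPM in the monocytes. Xist, expressed from the inactive X chromosome of females, was at 142 CPM or more in every monocyte library and at 0, 0 and 0.325 CPM in BMDM and 0, 0.0392 and 0.240 CPM in normal microglia, so any comparison with the monocytes is also one between sexes. The part of these differences in the results below was not tested.

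Pairs of neighbouring or co-expressed genes carry much of what follows, and the stretch around the start of 6 of them is printed to show the DNA at hand. Each runs from 250 bases before to 50 bases after the start on the gene's own strand, from RefSeq on GRCm38.p6. C1qb (chr4:136886151-136886450, minus strand) and C1qc (chr4:136892865-136893164, minus strand) lie side by side on chromosome 4 and code for chains of complement C1q. P2ry12 (chr3:59262936-59263235, minus strand) and P2ry13 (chr3:59210833-59211132, minus strand) are neighbouring purine receptor genes on chromosome 3. Oas1a (chr5:120907476-120907775, minus strand) and Isg15 (chr4:156200769-156201068, minus strand) are interferon-induced genes, Isg15 being chosen after its values were seen. Capitals mark matches to the ETS core GAGGAAG or to the interferon-stimulated response element GAAANNGAAA on either strand, with overlapping matches run together.
C1qb: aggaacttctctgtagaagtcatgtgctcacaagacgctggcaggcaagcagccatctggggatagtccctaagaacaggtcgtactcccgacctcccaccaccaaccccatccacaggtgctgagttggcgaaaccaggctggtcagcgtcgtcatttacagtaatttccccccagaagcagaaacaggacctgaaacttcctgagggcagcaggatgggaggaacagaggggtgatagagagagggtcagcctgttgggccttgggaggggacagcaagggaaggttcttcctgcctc
C1qc: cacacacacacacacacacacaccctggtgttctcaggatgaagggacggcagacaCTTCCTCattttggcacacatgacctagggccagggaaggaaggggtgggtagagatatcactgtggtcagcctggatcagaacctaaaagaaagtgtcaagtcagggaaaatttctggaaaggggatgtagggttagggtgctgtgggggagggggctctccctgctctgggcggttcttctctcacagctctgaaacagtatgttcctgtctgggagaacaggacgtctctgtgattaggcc
P2ry12: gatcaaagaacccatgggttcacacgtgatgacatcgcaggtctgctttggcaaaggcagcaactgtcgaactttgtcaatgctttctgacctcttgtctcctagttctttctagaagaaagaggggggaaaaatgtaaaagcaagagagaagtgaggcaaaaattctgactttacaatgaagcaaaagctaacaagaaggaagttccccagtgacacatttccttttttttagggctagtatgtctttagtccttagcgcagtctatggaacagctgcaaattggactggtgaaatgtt
P2ry13: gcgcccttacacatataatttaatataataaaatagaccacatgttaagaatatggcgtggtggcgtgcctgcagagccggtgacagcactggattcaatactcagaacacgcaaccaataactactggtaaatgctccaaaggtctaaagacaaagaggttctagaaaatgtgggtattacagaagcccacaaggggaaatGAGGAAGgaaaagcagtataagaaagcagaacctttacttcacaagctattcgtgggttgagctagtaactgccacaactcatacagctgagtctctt
Oas1a: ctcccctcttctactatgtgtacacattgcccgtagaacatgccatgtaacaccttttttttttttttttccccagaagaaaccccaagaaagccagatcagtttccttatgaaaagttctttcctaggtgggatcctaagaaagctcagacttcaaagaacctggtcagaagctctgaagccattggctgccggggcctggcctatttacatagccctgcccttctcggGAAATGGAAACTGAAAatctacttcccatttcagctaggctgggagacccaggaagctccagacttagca
Isg15: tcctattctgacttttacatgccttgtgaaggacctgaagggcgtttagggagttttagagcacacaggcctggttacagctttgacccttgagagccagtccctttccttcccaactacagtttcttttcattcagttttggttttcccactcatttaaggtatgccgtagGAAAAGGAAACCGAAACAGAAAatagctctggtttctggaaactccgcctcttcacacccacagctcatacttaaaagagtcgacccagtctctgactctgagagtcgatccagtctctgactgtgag
The ETS core lay at positions -194 to -188 from the start in C1qc, on the opposite strand, and at -48 to -42 in P2ry13, and these letters were not in the printed windows of C1qb and P2ry12. This core, bound by the macrophage factor PU.1 and its relatives, was in 13.6% of the 32851 promoters of this length in the table, in 30.3% of 33 promoters of microglia identity genes and in 40.0% of 25 promoters of core macrophage genes. The interferon element was in 3.44% of all promoters and in 16 of 31 (51.6%) promoters of interferon response genes. A RUNX motif (TGTGGTT) was in 5.27% and an AP-1 motif (TGANTCA) in 7.81% of all promoters. Over the 15320 promoters of tested genes the shares were 13.7% (ETS core), 3.13% (interferon element), 4.01% (RUNX) and 5.74% (AP-1). For genes called higher and lower the shares were 14.6% and 13.5% for the ETS core, 4.38% and 2.45% for the interferon element, 4.77% and 3.94% for RUNX and 7.05% and 4.41% for AP-1. Such a match is a run of letters and no evidence of binding.

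As a whole BMDM stood about as far from normal microglia as from the blood monocytes they descend from, and much nearer to the microglia of their own tumours. The root mean square difference of log2 CPM over the genes tested was 2.16 ± 0.0654 (SD over 9 pairs of libraries) to normal microglia, 2.14 ± 0.0736 to monocytes (15 pairs) and 1.24 ± 0.122 to tumour microglia (9 pairs), against 0.887 among BMDM and 0.547 among normal microglia. Library by library the distances to normal microglia averaged 2.11, 2.15 and 2.24, and those to monocytes 2.08, 2.14 and 2.21, so monocytes were slightly nearer for each of the 3. Among genes at 20 CPM or more on average, monocytes were nearer, at 1.83 against 2.02. Tumour microglia themselves stood 1.98 ± 0.239 (SD over 9 pairs) from normal microglia. Their range of 1.75 to 2.33 overlapped that of BMDM, 2.08 to 2.275. Normal microglia and monocytes were 2.37 apart. BMDM and normal microglia thus differ by tumour against normal brain as well as by descent, and the 2 cannot be told apart in this distance. The pairs share libraries, and no test was made of these distances.

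Gene by gene, 4957 of the 15363 genes tested (32.3%) were called higher in BMDM and 4352 (28.3%) lower, together 60.6%, and 9885 (64.3%) had an unadjusted p under 0.05. Changes of 4-fold or more made up 2433 genes higher (15.8%) and 1404 lower (9.14%). At the other end 4096 genes (26.7%) were held within 2-fold. BMDM lay above normal microglia in all libraries for 35.5% of genes and below for 34.5%. Against these shares each list of genes below has to be read, and in bulk samples fewer cells of a type and less RNA per cell cannot be told apart.

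**Figure D1:**
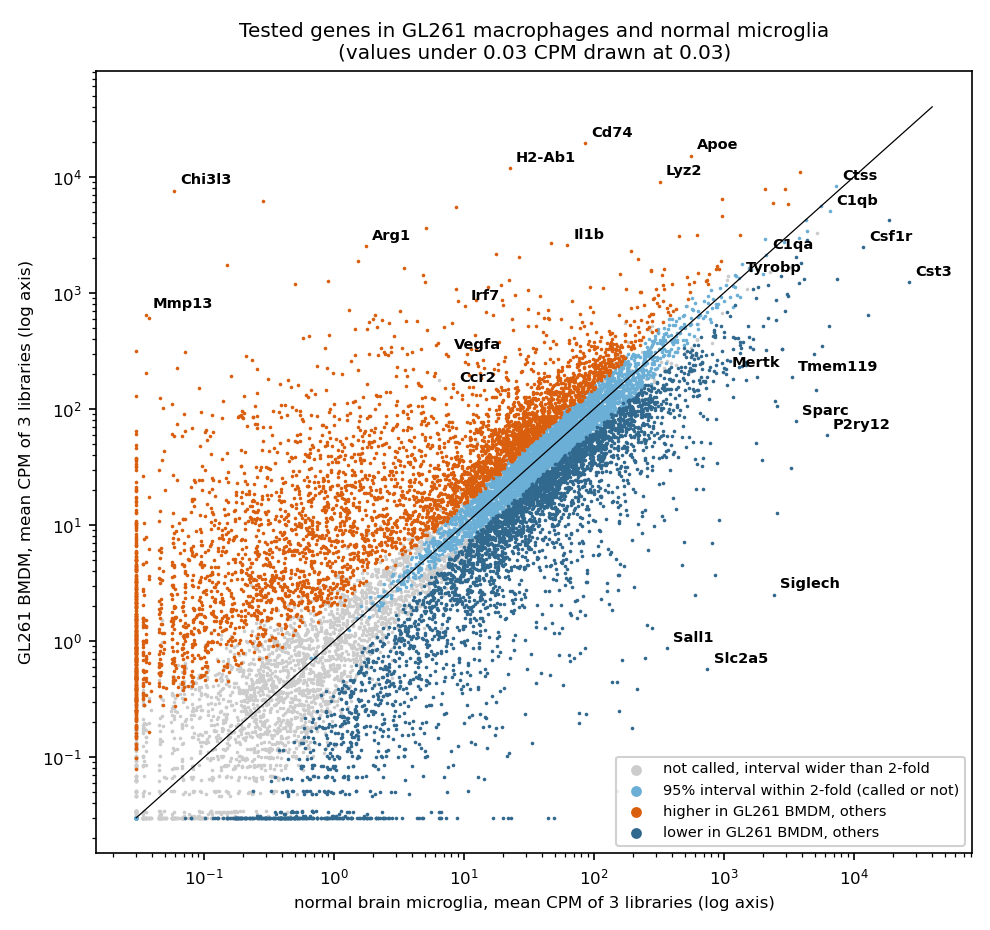
Mean CPM of each tested gene in normal microglia (horizontal, n = 3) and in GL261 BMDM (vertical, n = 3), both on log axes, coloured by whether the gene was called or held within 2-fold. The labelled C1q genes lie on or near the diagonal among the highest values, while P2ry12 and Slc2a5 lie far below it.

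A scale from blood to brain sets each gene in context. For genes that differed by at least 2 log2 units between monocytes and normal microglia, the BMDM level was placed between the 2, with 0 at the monocyte and 1 at the normal microglia mean. Among the 1822 such genes that are higher in normal microglia the median position was 0.48, with 33.4% at 0.25 or below and 31.0% at 0.75 or above. The 32 microglia identity genes on this scale had a median of 0.26, and 1 of them was above 0.75. Complement and phagocytosis genes (10 genes) stood at 0.95, core macrophage genes (6 genes) at 0.97 and matrix genes (10 genes) at 0.92. Among the 1929 genes higher in monocytes the median was 0.46, and the interferon response list (24 genes) stood at -0.07 and MHC class II (7 genes) at -0.26, at or beyond the blood level.

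The identity programme of microglia was the part that BMDM lacked most. Of its 35 genes tested, 33 were called lower and none higher, beside 28.3% of all genes called lower, and in all 35 every BMDM library was below every normal microglia library. The median log2 fold change was -4.30, beside 0.02 over all genes. Summed over the list, BMDM held 5037, 5058 and 4350 CPM and normal microglia 90060.4, 94356 and 87410.3 CPM, while monocytes held 4325 ± 320.0 CPM (SD, n = 5). Calls stayed between 32 and 35 genes lower under all 12 alternatives tried, and were 33 without library 80769.

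At the far end stood genes that were all but absent. Slc2a5, a fructose transporter, was at 0.554, 0.618 and 0.558 CPM in BMDM and 636, 827 and 772 CPM in normal microglia (log2 fold change -10.32 ± 1.03 (SE), adjusted p = 1.92e-07). Its BMDM level was that of monocytes (0.551 ± 0.104 CPM, SD, n = 5), and its position on the blood-to-brain scale was 0.01. Siglech, a lectin of microglia and plasmacytoid dendritic cells, was at 1.97, 2.22 and 3.35 against 2609, 2400.2 and 2209.6 CPM (log2 fold change -9.90, adjusted p = 2.26e-08). Sall1, the zinc finger factor that in the brain marks microglia, was at 0.504, 0.979 and 1.12 against 360.0, 381 and 351 CPM (log2 fold change -8.70 ± 0.80 (SE), adjusted p = 7.16e-08). These genes were not silent in the same tumours: sorted microglia there held 135, 97.1 and 28.2 CPM of Sall1 and 116, 84.0 and 10.7 CPM of Slc2a5, in the order 80766, 80767, 80769. Crybb1, Gpr56 (now Adgrg1), Slco2b1, Rtn4rl1 and Gpr34 followed, with log2 fold changes of -8.40, -7.86, -7.66, -7.51 (-8.19 without library 80769) and -6.73.

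The purine receptors split. P2ry12, the ADP receptor by which microglial processes sense injury, was at 53.3, 52.1 and 73.9 CPM in BMDM and 5766, 6774 and 5998 CPM in normal microglia, a 103-fold difference (log2 fold change -6.69 ± 0.55 (SE), adjusted p = 2.03e-08). Its neighbour P2ry13 was at 148, 130.3 and 71.8 against 2238, 2780.2 and 2344 CPM (log2 fold change -4.39, adjusted p = 1.12e-05). P2ry6, the UDP receptor tied to phagocytosis, was at 151, 159 and 145 against 168, 211 and 212 CPM, and was the one gene of the list held within 2-fold (log2 fold change -0.38 ± 0.20 (SE), adjusted p = 0.111). The ion channel receptor P2rx7 was 3.03-fold lower (log2 fold change -1.60, adjusted p = 1.40e-06). P2ry12 in BMDM was also below the monocyte mean of 117 ± 35.5 CPM (SD, n = 5) and was called lower there too (log2 fold change -0.97, adjusted p = 0.0409). Platelet markers summed to 1030 to 2400 CPM in the monocyte libraries and 79.8 to 156 CPM in BMDM. The part of platelet RNA in the monocyte level of P2ry12 was not tested.

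Several genes that define microglia in practice were present in BMDM at a fraction of the resident level. Tmem119, a membrane protein used as a microglia marker, was at 146, 374 and 42.3 CPM against 3002, 3857 and 3128 CPM (log2 fold change -4.15 ± 0.74 (SE), adjusted p = 1.06e-04), and library 80769 was the lowest. Without 80767, the highest, the log2 fold change was -5.18. Cst3, the secreted protease inhibitor cystatin C, was at 1203, 1029.7 and 1501 against 28906, 25404 and 25618 CPM (log2 fold change -4.42, adjusted p = 1.16e-08), with BMDM at the monocyte level (position -0.01). Sparc, a matrix-binding glycoprotein, was at 71.5, 92.5 and 71.4 against 3725, 3439 and 3599.7 CPM (log2 fold change -5.51, adjusted p = 1.01e-06). Cx3cr1, the fractalkine receptor, was at 193, 209.6 and 31.6 against 5009, 5638 and 4729 CPM (log2 fold change -5.15 ± 0.68 (SE), adjusted p = 4.71e-06) and lay below the blood monocytes, which held 670.0 ± 220.4 CPM (position -0.86).

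A smaller set was partly acquired. Trem2, the lipid-sensing receptor that pairs with Tyrobp, was at 164, 198 and 271 CPM in BMDM against 876, 797 and 845 CPM and 28.6 ± 4.69 CPM in monocytes, which put it at 0.59 on the scale (log2 fold change -1.99, adjusted p = 2.16e-06). Olfml3, a secreted matrix protein, was at 214, 267 and 89.3 against 1676, 1880.4 and 1832 CPM (position 0.63, log2 fold change -3.24, adjusted p = 6.70e-06). Fcrls, an Fc receptor-like protein, was at 47.1, 147 and 126 against 2521, 2840.5 and 2341 CPM (position 0.50). Il7r, the interleukin 7 receptor, and the T cell checkpoint gene Lag3 were also near, at -1.22 and -1.70 on the log2 scale. The call of Il7r was lost without BMDM 80766 (adjusted p = 0.0736), BMDM 80767 (0.0819) or normal microglia 67574 (0.0535).

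**Figure D2:**
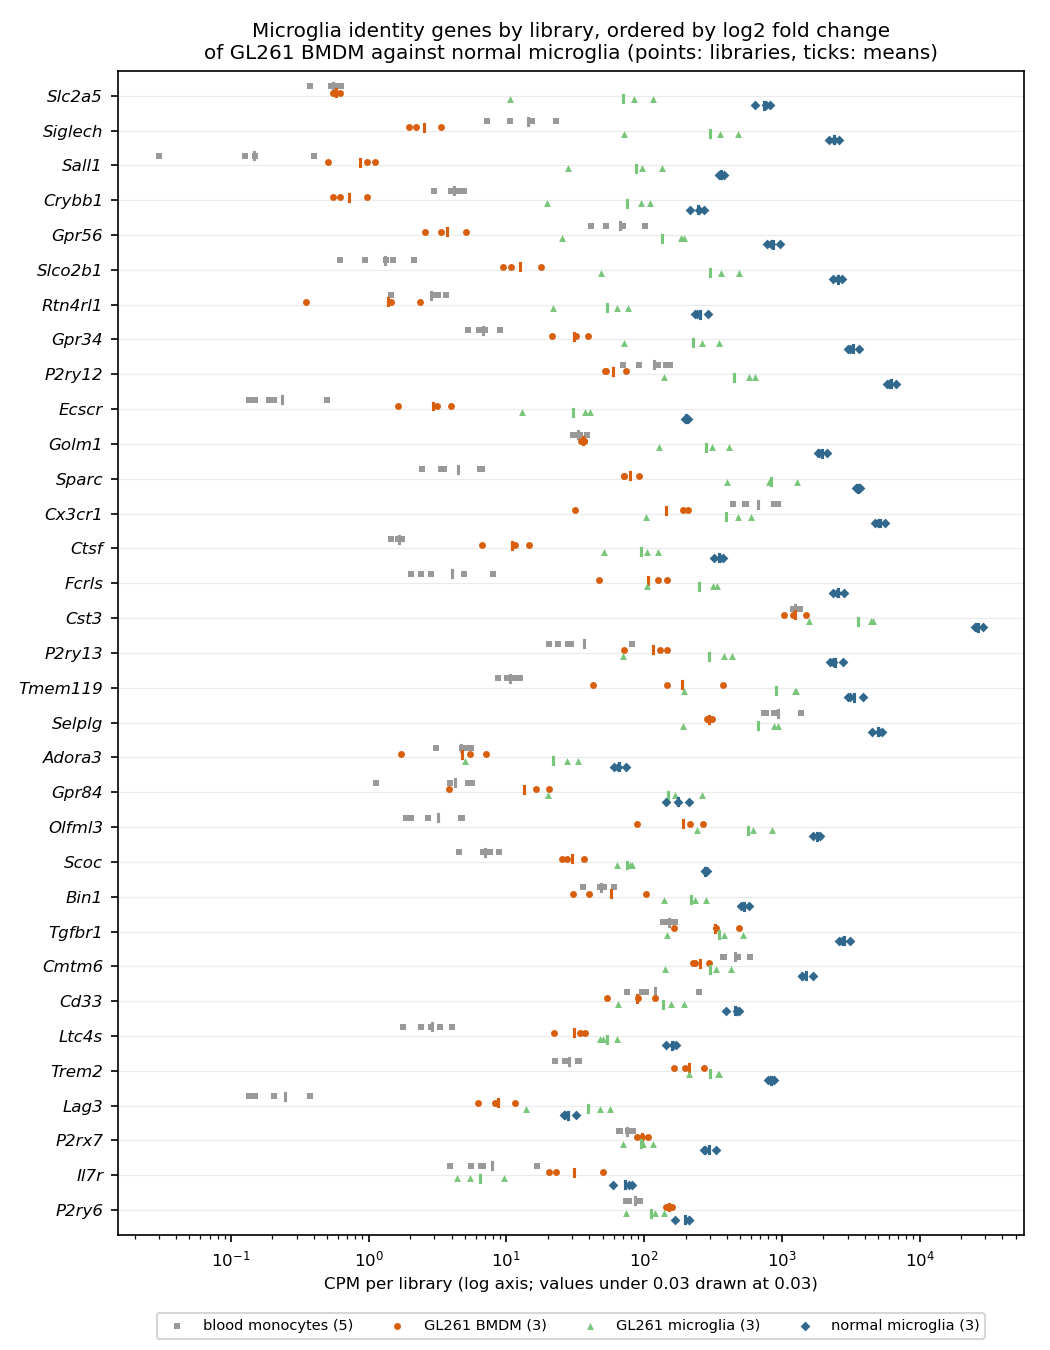
CPM of 33 of the 35 microglia identity genes in each library of blood monocytes, GL261 BMDM, GL261 tumour microglia and normal microglia, on a log axis. BMDM points lie left of the normal microglia points for every gene plotted, by more than 3 log10 units for Slc2a5 and by the least for P2ry6.

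BMDM were also below the microglia of the same tumours for most of the list. Of the 35 genes 22 were lower and 2 higher in BMDM than in tumour microglia, beside 6.81% lower and 10.7% higher over all genes, together 17.5%. This comparison shares the BMDM libraries with the first. The position of the list was 0.26 in BMDM and 0.63 in tumour microglia, by medians. Rtn4rl1 (log2 fold change -5.26, adjusted p = 2.59e-06) and Golm1 (log2 fold change -2.98, adjusted p = 7.42e-06) stood out, whereas Cx3cr1 (log2 fold change -1.45, adjusted p = 0.0962), P2ry13 (log2 fold change -1.34, adjusted p = 0.107) and Tgfbr1 (log2 fold change -0.10, adjusted p = 0.905) were not called between the fractions. The list summed to 20298 and 17127 CPM in the microglia of tumours 80766 and 80767 but to 5976 CPM in that of 80769. Without that microglia library 946 genes were lower and 1478 higher in BMDM over the whole table, instead of 1046 and 1646. Rises made up 61.1% of the calls between the fractions here and 50.6% with DESeq2. With only these 6 libraries in the fit 599 genes were higher and 234 lower, of which rises made up 71.9%.

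The transcription factors behind the resident programme were lower as a group. Of 20 tested, 16 were called lower and 1 higher, beside 28.3% and 32.3% of all genes. The median log2 fold change was -2.56, and 2 were held within 2-fold. Much of this was shared by tumour microglia. The list summed to 3680 to 4063 CPM in BMDM, 2648 to 5755 CPM in tumour microglia and 15286 to 19496 CPM in normal microglia. Microglia of tumour 80769 were below every BMDM library. Between BMDM and tumour microglia 11 were lower and 3 higher in BMDM, beside 6.81% and 10.7% of all genes. After Sall1, the largest gaps were in Tal1 (-4.84), Klf2 (-4.22), Jun (-4.04) and Mef2c. Mef2c, a MADS-box factor that restrains microglial activation, was at 70.4, 51.4 and 34.8 CPM against 667, 678 and 638 CPM (log2 fold change -3.66 ± 0.38 (SE), adjusted p = 2.68e-07). Smad3, which carries the TGF-beta signal to the nucleus, was at 8.37, 14.02 and 12.1 against 83.3, 80.3 and 79.2 CPM (log2 fold change -2.81, adjusted p = 1.82e-06). Runx1 (-1.45) and Cebpa (-1.10) were lower by less.

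Among factors shared by many macrophages the differences were smaller. Sfpi1 (now Spi1), which codes for PU.1, was at 342, 310.3 and 316 CPM in BMDM and 249.6, 278 and 252 CPM in normal microglia, within 2-fold (log2 fold change 0.31, adjusted p = 0.145). Irf8 was at 527, 386 and 281 against 639, 667 and 552 CPM with every BMDM library below every normal one, and was neither called (log2 fold change -0.64, adjusted p = 0.0896) nor within 2-fold. Without BMDM 80766 it was called lower (log2 fold change -0.94). Nr4a1, an immediate early nuclear receptor, was the member that rose, at 872, 708 and 663 against 273, 216 and 156 CPM (log2 fold change 1.8, adjusted p = 1.81e-05).

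Receptors of the signals that maintain microglia were present but lower. Csf1r, the receptor of CSF1 and IL-34, was at 2582, 2058 and 2839.8 CPM in BMDM against 10931, 13287 and 11163 CPM (log2 fold change -2.24 ± 0.30 (SE), adjusted p = 5.54e-06), with tumour microglia at 4259.8, 3120.3 and 1345 CPM and no call between the fractions (log2 fold change -0.22, adjusted p = 0.629). Of 25 TGF-beta pathway genes tested, 12 were lower and 6 higher (median log2 fold change -0.61). Among receptors Tgfbr1 was at 486, 330.0 and 166 against 2620.4, 3111 and 2721 CPM (log2 fold change -3.11, adjusted p = 1.51e-05). Among ligands Tgfb1 was within 2-fold (log2 fold change 0.26, adjusted p = 0.278), and Tgfb3 was at 19.9, 59.8 and 79.0 against 0.0672, 0.744 and 0.823 CPM (log2 fold change 6.6, adjusted p = 9.70e-07). Ltbp1, which holds latent TGF-beta in the matrix, was higher (log2 fold change 5.07, adjusted p = 9.01e-07). Lrrc33 (now Nrros), which anchors latent TGF-beta on microglia, was at 413, 310.0 and 455 against 415, 499 and 394 CPM and within 2-fold (log2 fold change -0.15, adjusted p = 0.658).

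What BMDM had acquired to near the resident level was above all complement C1q. C1qa was at 1952, 2385 and 2004 CPM in BMDM and 2121, 2079 and 2151 CPM in normal microglia, a log2 fold change with a 95% interval of -0.54 to 0.53 (adjusted p = 0.997), while blood monocytes held 3.97 ± 1.42 CPM. C1qb was at 4812, 5379 and 5023 against 6591, 6409 and 6767 CPM (log2 fold change -0.38, adjusted p = 0.114) and C1qc at 3391, 3469 and 3391 against 4067, 4405 and 4644 CPM (log2 fold change -0.36, adjusted p = 0.121). All 3 chains of C1q, the opening component of the classical pathway, were held within 2-fold, and their positions were 1.00, 0.95 and 0.96. For C1qb and C1qc every BMDM library was below every normal library, and the small difference was called when only the 6 libraries were fitted (log2 fold changes -0.40 and -0.38). Against monocytes the same BMDM libraries stood 525-fold higher for C1qa (log2 fold change 9.04, adjusted p = 1.56e-13).

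Complement and phagocytosis genes as a list were split. Of 25 tested 12 were higher, 4 lower and 7 within 2-fold, the last beside 26.7% of all genes. C3ar1, the C3a receptor, was at 670.5, 708 and 707 against 727, 639 and 543 CPM (log2 fold change 0.13, adjusted p = 0.647) and Stab1, a scavenger receptor, at 188, 337 and 305 against 326, 312 and 320.2 CPM (log2 fold change -0.21, adjusted p = 0.649), both within 2-fold and both far above the monocyte means of 12.7 ± 3.48 and 5.29 ± 3.42 CPM. Mertk, which with Gas6 or Pros1 as bridge binds dying cells, was at 231, 216 and 158 against 1072, 1086 and 939 CPM (log2 fold change -2.36 ± 0.37 (SE), adjusted p = 3.10e-05) and stood at 0.74 on the scale, since monocytes held 1.91 ± 0.440 CPM. Gas6 was at 74.8, 94.9 and 272 against 156, 180.0 and 161 CPM and was not called (log2 fold change -0.17, adjusted p = 0.726), with library 80769 alone above normal microglia. Without that library it was called lower (log2 fold change -0.997). Pros1 was lower (log2 fold change -3.94, adjusted p = 1.50e-09). The related receptor Axl went the other way, at 1754, 1437 and 641 against 15.7, 24.01 and 26.7 CPM (log2 fold change 5.85 ± 0.40 (SE), adjusted p = 2.47e-09).

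Complement of the alternative pathway was far above the resident level. C3, the central component, was at 443, 381 and 459 CPM in BMDM and 0.537, 0.822 and 0.548 CPM in normal microglia (log2 fold change 9.39 ± 0.55 (SE), adjusted p = 5.23e-10), and monocytes already held 508 ± 112 CPM. Cfb, factor B, was at 2403, 2434 and 804 against 1.28, 1.33 and 1.95 CPM (log2 fold change 10.26, adjusted p = 6.60e-10), and BMDM were 40.7-fold above monocytes (log2 fold change 5.35, adjusted p = 4.91e-09). Itgax, a chain of complement receptor 4, rose (log2 fold change 6.11, adjusted p = 1.16e-07), Itgam, the chain of complement receptor 3 that the sort used as CD11b, fell (log2 fold change -2.23, adjusted p = 1.23e-04), and their partner Itgb2 was within 2-fold (log2 fold change 0.37, adjusted p = 0.133).

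Lysosomal and core macrophage genes were split between matched and changed. Of 30 core macrophage genes 6 were higher and 10 lower (53.3% called) and of 30 lysosomal genes 11 were higher and 6 lower (56.7%), near the 60.6% of all genes. Within 2-fold were 14 (46.7%) and 12 (40.0%), beside 26.7% of all genes. The median log2 fold changes of 0.06 and 0.10 are over members that went both ways. Ctss, the cysteine protease of antigen processing, was at 8200.2, 8782 and 7898 against 7127, 7666 and 7193 CPM (log2 fold change 0.18, adjusted p = 0.460). Lgmn, the asparaginyl protease legumain, was at 2732, 3112 and 3055 against 3583, 3945 and 3864 CPM, with monocytes at 149 ± 9.66 CPM (log2 fold change -0.36, adjusted p = 0.119). Hexa, a lysosomal enzyme subunit, was at 867, 845 and 1035 against 896, 975.4 and 949.9 CPM (log2 fold change -0.04, adjusted p = 0.847). Grn (log2 fold change 0.47, adjusted p = 0.0526), Lamp1 (log2 fold change 0.35, adjusted p = 0.0671), Tyrobp (log2 fold change 0.02, adjusted p = 0.924), Aif1 (log2 fold change 0.31, adjusted p = 0.270) and Emr1, now Adgre1 (log2 fold change -0.02, adjusted p = 0.952), were also within 2-fold.

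Among the lysosomal genes that did differ, Ctsd, the aspartyl protease cathepsin D, was at 3403, 4684 and 4659 against 18329.9, 19098 and 18195 CPM (log2 fold change -2.13, adjusted p = 4.28e-05), a gene chosen after its values were seen. Ctsf was 31.8-fold lower. Ctsb (log2 fold change 1.52, adjusted p = 1.44e-05), Ctsc (log2 fold change 2.27, adjusted p = 5.69e-07) and the galactosidase gene Gla (log2 fold change 3.02, adjusted p = 5.84e-09) were higher. Fcgr3, an Fc receptor, was held within 2-fold and yet called lower, at 1522, 1269.5 and 1586 against 1976, 2038 and 1986 CPM (log2 fold change -0.45, adjusted p = 0.0228), a call lost without BMDM 80767 (adjusted p = 0.0827).

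**Figure D3:**
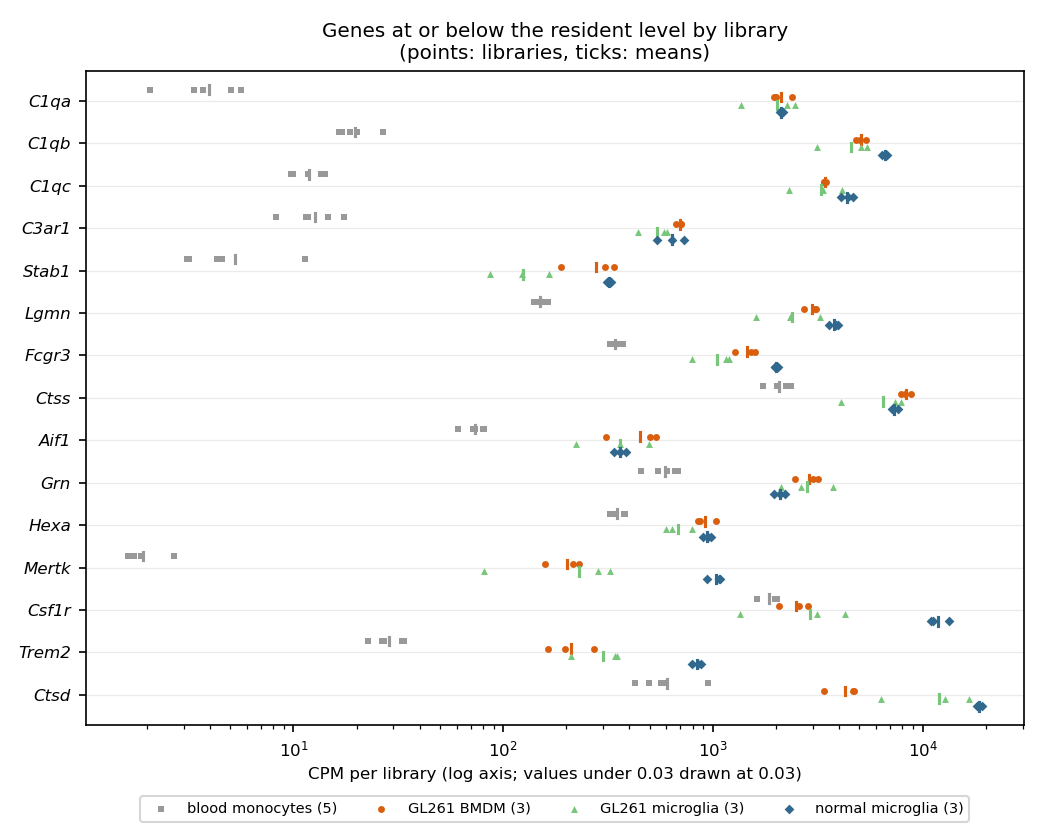
CPM of 15 macrophage genes in each library of monocytes, GL261 BMDM, GL261 tumour microglia and normal microglia, on a log axis. C1qa, C1qb, C1qc and C3ar1 in BMDM overlap or adjoin normal microglia and lie far from monocytes, while Mertk, Csf1r, Trem2 and Ctsd lie between monocytes and normal microglia.

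The blood programme was only partly given up. Of 30 monocyte identity genes 27 were called higher in BMDM than in normal microglia and none lower, beside 32.3% of all genes called higher, with a median log2 fold change of 6.31 (6.16 with genes at 0 in a group set to their bound). Ly6c2, which codes for the antigen that marks these monocytes, was at 73.0, 51.4 and 21.8 CPM in BMDM although the gate excluded Ly6C+ cells, and had no count in normal microglia, which makes it at least 1351-fold higher (floor of 3 counts over the group). Monocytes held 825, 1239.8, 1245, 899 and 1106 CPM. Ly6c1, a near copy, was not called between BMDM and normal microglia (16.2, 17.9 and 8.22 and 17.03, 5.87 and 13.2 CPM, log2 fold change 0.23, adjusted p = 0.754) and was not within 2-fold by its interval, and reads of the 2 genes may be shared. Against monocytes 24 of the 30 genes were lower and 2 higher in BMDM, beside 28.9% and 34.1% of all genes, together 63.0%.

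Single genes of the list lay at different points between blood and brain. Lyz2, lysozyme, was at 11587, 8827 and 6785 CPM in BMDM, 283, 309 and 368 CPM in normal microglia and 28705 ± 7617 CPM in monocytes (log2 fold change 4.82, adjusted p = 1.78e-07). Ccr2 was at 239, 89.3 and 127 against 7.19, 8.11 and 9.29 CPM (log2 fold change 4.21, adjusted p = 2.61e-06), with 4.20, 6.28 and 18.3 CPM in the tumour microglia. Both of these were chosen after their values were seen. Thbs1, thrombospondin, was at 888, 1198 and 1062 against 34.8, 30.3 and 28.1 CPM (log2 fold change 5.08, adjusted p = 4.10e-09) and exceeded the monocytes (333 ± 81.4 CPM). Cybb, the NADPH oxidase subunit, was at 1525, 1139 and 572 against 6.85, 5.37 and 13.6 CPM (log2 fold change 6.96, adjusted p = 9.40e-09), and Plac8 at 57.3, 50.2 and 40.4 against 0.773, 0.705 and 0.548 CPM (log2 fold change 6.18, adjusted p = 6.60e-10). Itgal, the LFA-1 chain, was at 244, 235 and 68.5 against 0.403, 0.157 and 0.377 CPM (log2 fold change 9.14, adjusted p = 1.60e-08).

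Genes tied to macrophages of monocyte descent separated the groups as strongly. Of 30 tested 27 were higher and 1 lower (median log2 fold change 6.24), and 26 and 3 without library 80769. Itga4, the integrin chain used to tell recruited from resident macrophages in brain tumours, was at 87.6, 82.9 and 72.0 CPM in BMDM, 1.38, 0.313 and 2.06 CPM in normal microglia and 14.7, 16.6 and 30.3 CPM in tumour microglia (log2 fold change 5.99 ± 0.54 (SE), adjusted p = 6.31e-08). Runx3, a runt-domain factor, was at 119.9, 138 and 93.6 against 0.202, 0.0783 and 0.137 CPM (log2 fold change 9.63, adjusted p = 1.59e-10). Tgfbi was at 3064, 3316 and 1706 against 39.8, 46.2 and 54.0 CPM (log2 fold change 5.85, adjusted p = 6.60e-10), Ms4a7 at 505, 544 and 737 against 2.08, 1.76 and 2.16 CPM (log2 fold change 8.21, adjusted p = 1.55e-08) and Lgals3, galectin 3, at 1086, 1018 and 2195 against 5.21, 3.80 and 5.42 CPM (log2 fold change 8.22, adjusted p = 4.56e-09). Against the microglia of the same tumours 20 of the 30 genes were higher in BMDM and none lower, beside 10.7% and 6.81% of all genes.

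Antigen presentation by MHC class II set BMDM widely apart from normal microglia. Of 19 genes tested 11 were higher and 3 lower (median log2 fold change 3.03), with the same counts without library 80769. The list was also above normal microglia in tumour microglia, with sums of 12307 to 23057 CPM against 8174 to 8865 CPM. Between BMDM and tumour microglia 11 of the 19 were higher in BMDM and none lower, beside 10.7% and 6.81% of all genes. H2-Ab1 was at 16797, 12008 and 6653 CPM in BMDM against 17.7, 19.0 and 30.4 CPM in normal microglia (log2 fold change 9.04 ± 0.48 (SE), adjusted p = 1.79e-10), and library 80769 was the lowest of the BMDM. Cd74, the invariant chain, was at 26145, 20721 and 11442 against 75.6, 51.6 and 127 CPM (log2 fold change 7.84, adjusted p = 8.25e-10), and the master regulator Ciita at 204, 89.2 and 89.8 against 0.672, 0.392 and 0.823 CPM (log2 fold change 7.64, adjusted p = 4.44e-09). The factors Rfxap and Rfxank, which bind class II promoters with Ciita, were within 2-fold (0.06 and 0.13 on the log2 scale). H2-Ab1 also exceeded the monocytes, by 8.87-fold (log2 fold change 3.15, adjusted p = 9.50e-08). Of 10 dendritic cell markers 5 were higher and 1 lower (median log2 fold change 1.62). They summed to 199.7, 180.5 and 637 CPM in BMDM and 183 to 209 CPM in normal microglia, so library 80769 was the highest for them and the lowest for the class II list (66333, 52846 and 33954 CPM). Their part was not tested. H2 genes are near copies of one another, so their single values are uncertain.

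MHC class I followed with smaller changes. Of 17 genes 14 were higher and none lower (median log2 fold change 1.49). H2-K1 was at 3264, 3539 and 2684 against 684, 537 and 633 CPM (log2 fold change 2.36, adjusted p = 6.33e-08), and Nlrc5, the class I transactivator, at 136, 122 and 67.7 against 3.26, 3.68 and 4.52 CPM (log2 fold change 4.83, adjusted p = 4.77e-09). Between BMDM and tumour microglia 2 of the 17 were called (11.8%, beside 17.5% of all genes), both higher in BMDM.

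The interferon response was higher in every BMDM library than in normal microglia. Of 34 genes 32 were higher and none lower (median log2 fold change 4.46), and 32 and none without library 80769. The list summed to 10076 and 9749 CPM in BMDM 80766 and 80767 and to 4129 CPM in 80769, against 929 to 1169 CPM in normal microglia. Oas1a was at 265, 241 and 119.7 against 5.48, 4.74 and 5.31 CPM (log2 fold change 5.33 ± 0.28 (SE), adjusted p = 1.68e-10), Isg15 at 249, 261 and 96.7 against 7.83, 5.05 and 4.90 CPM (log2 fold change 5.09, adjusted p = 9.18e-09) and Irf7 at 999, 899 and 400.4 against 9.41, 9.83 and 11.1 CPM (log2 fold change 6.24, adjusted p = 6.60e-10). Zbp1, a sensor of nucleic acid, was at 241, 243 and 117 against 1.04, 1.17 and 1.23 CPM (log2 fold change 7.44, adjusted p = 1.28e-10). The chemokine Cxcl9 was at 285, 238 and 48.1 against 0.134, 0.0392 and 0.309 CPM (log2 fold change 10.12, adjusted p = 3.70e-07, and 10.92 without normal microglia 67574). Between BMDM and tumour microglia 4 of the 34 were higher and 1 lower in BMDM (14.7% called, beside 17.5% of all genes). Against monocytes 13 were higher and 3 lower (47.1% called, beside 63.0% of all genes). Neither share of calls is above that of all genes.

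**Figure D4:**
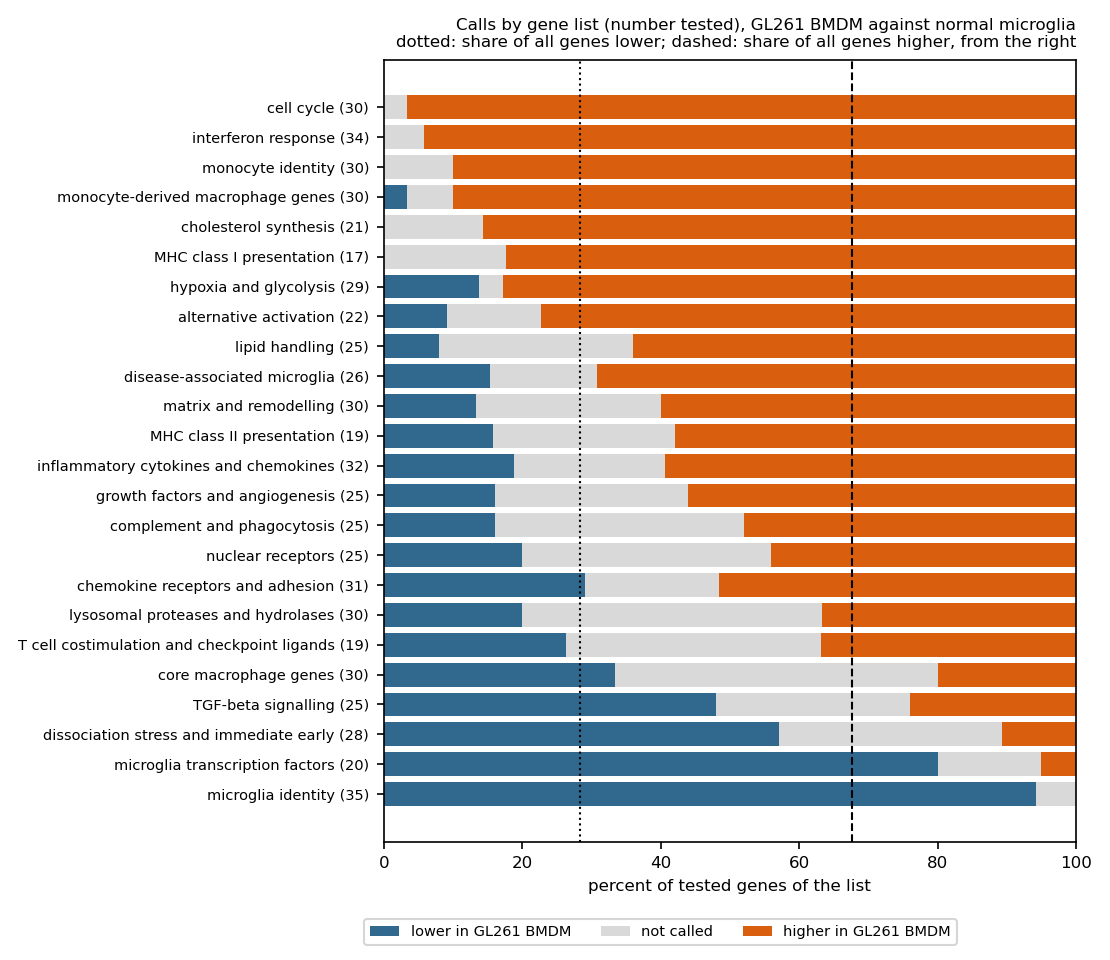
Share of the tested genes of each of 24 lists called lower (left), not called (middle) and called higher (right) in GL261 BMDM against normal microglia, in percent, with the number tested in brackets. The dotted and dashed lines give the shares of all genes, 28.3% lower and 32.3% higher, and cell cycle and interferon genes stand at one end and microglia identity at the other.

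Genes that microglia raise in neurodegeneration, the disease-associated microglia list, were mostly above the resident level. Of 26 tested 18 were higher and 4 lower (median log2 fold change 2.22), and 15 and 6 without library 80769. Against monocytes 16 were higher and 3 lower (73.1% called, beside 63.0% of all genes). Against tumour microglia 6 were higher and 3 lower (34.6% called, beside 17.5% of all genes). Gpnmb, a transmembrane glycoprotein, was at 1089.6, 1646 and 1043 CPM in BMDM, 0.605, 0.901 and 1.20 CPM in normal microglia and 1.98 ± 0.345 CPM in monocytes (log2 fold change 10.44 ± 0.79 (SE), adjusted p = 8.21e-09). Spp1, osteopontin, was at 1067, 1703 and 3750.2 against 27.2, 11.5 and 13.8 CPM (log2 fold change 6.95, adjusted p = 8.10e-07, and 6.27 without library 80769), a gene chosen after its values were seen. Clec7a, a glucan receptor, was at 2350.2, 927 and 2864 against 27.6, 26.2 and 25.2 CPM (log2 fold change 6.28, adjusted p = 1.58e-08), but monocytes held 616 ± 57.2 CPM. Trem2 and its partner Tyrobp were lower and within 2-fold respectively (log2 fold changes of -1.99 and 0.02).

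Lipid genes were higher as well. Of 25 lipid handling genes 16 were higher and 2 lower (median log2 fold change 2.33), and of 21 cholesterol synthesis genes 18 were higher and none lower (1.05). Apoe, the lipid carrier, was at 13460.1, 21448 and 10745 CPM against 433, 452 and 782 CPM, and monocytes held 2229 ± 411 CPM (log2 fold change 4.77, adjusted p = 3.73e-07), a gene chosen after its values were seen. Nr1h3, the oxysterol receptor LXR alpha, was at 40.6, 43.4 and 58.6 against 0.941, 0.744 and 0.857 CPM (log2 fold change 5.80 ± 0.39 (SE), adjusted p = 2.28e-09), and Plin2, which coats lipid droplets, at 636, 615 and 892 against 44.8, 44.8 and 43.3 CPM (log2 fold change 4.01, adjusted p = 1.25e-08). Among synthesis genes Srebf2 (2.31), Sqle (3.40) and Pmvk (3.11) were higher on the log2 scale. The exporter gene Abcg1 was at 58.8, 57.4 and 61.9 against 65.6, 72.8 and 68.2 CPM and was not called (log2 fold change -0.21, adjusted p = 0.593).

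Genes of alternative activation rose, in part through 1 tumour. Of 22 tested 17 were higher and 2 lower (median log2 fold change 5.62), and 13 and 2 without library 80769, with a median of 4.01. Chi3l3 (now Chil3), a chitinase-like protein, was at 25.96, 30.3 and 22717 CPM in BMDM and 0.0672, 0.0392 and 0.0686 CPM in normal microglia (log2 fold change 16.83 ± 4.20 (SE), adjusted p = 0.00238). Its log2 fold change was 8.72 without library 80769, and its call was lost with limma-voom (adjusted p = 0.283). Library 80769 thus held nearly all of it, as it did for Retnla (3.68, 2.27 and 5189 CPM), whose call was lost without it (log2 fold change 4.20, adjusted p = 0.229), and for Cd163, Folr2 and Cbr2. Cd163, a haemoglobin scavenger receptor, was at 0.403, 1.13 and 890.3 CPM, and without 80769 its log2 fold change was -1.71 (adjusted p = 0.315). Folr2 was at 0.706, 3.81 and 184 CPM and Cbr2 at 1.46, 7.42 and 316 CPM, and they fell to log2 fold changes of 0.12 and 0.52 without it. These last 3, Mrc1 and Arg1 were chosen after their values were seen. In the microglia of tumour 80769 the same genes were high too, with 0.0429, 1.24 and 4421 CPM of Chi3l3 in the order of the tumours.

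Other members were high in all 3 tumours. Arg1, arginase 1, was at 597, 659 and 6265 CPM against 1.81, 1.61 and 1.85 CPM (log2 fold change 10.47, adjusted p = 3.64e-04), and Mrc1, the mannose receptor, at 438, 273 and 2172 against 21.6, 24.05 and 28.2 CPM (log2 fold change 5.29, adjusted p = 3.71e-04). Without library 80769 their log2 fold changes were 8.45 and 3.82. Tgm2 was at 727, 1048 and 1501 against 128, 118 and 108 CPM (log2 fold change 3.21, adjusted p = 7.69e-06), and the scavenger receptor Msr1 at 1129.7, 864 and 580.2 against 8.03, 7.64 and 11.1 CPM (log2 fold change 6.59, adjusted p = 6.68e-09). Il10 was at 7.61, 15.1 and 16.7 against 0.269, 0.0783 and 0.274 CPM (log2 fold change 5.93, adjusted p = 1.47e-06). Stab1 and Egr2 were the members held within 2-fold.

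**Figure D5:**
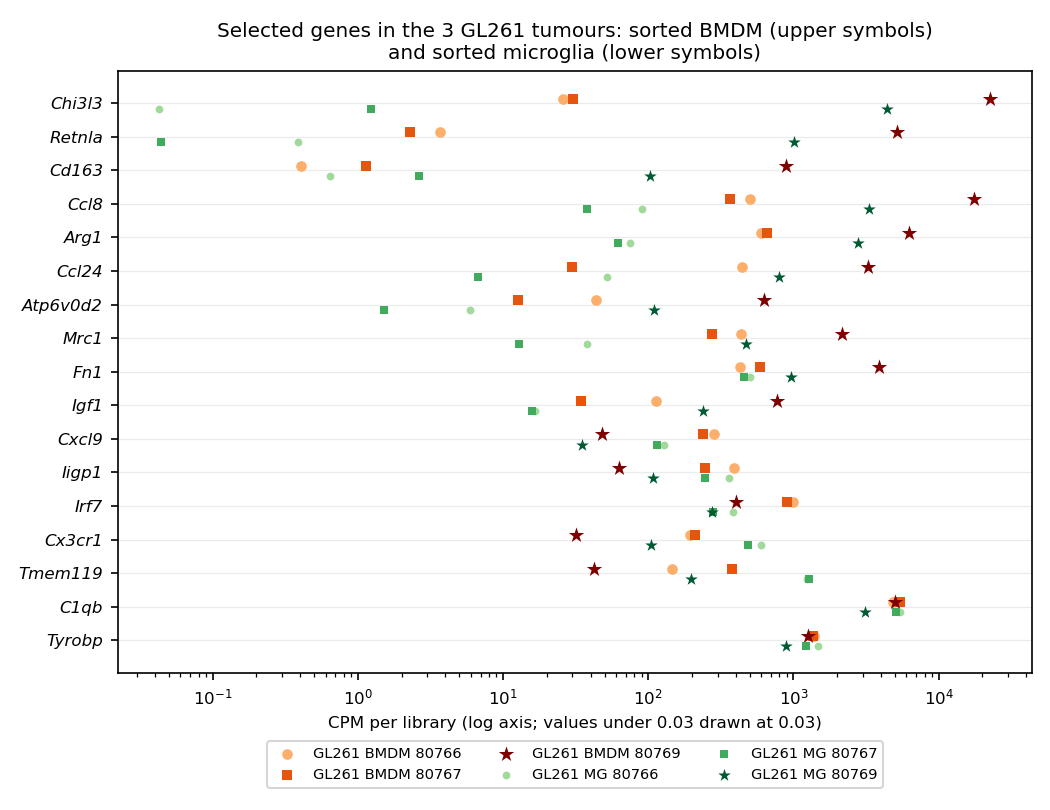
CPM of selected genes in BMDM (upper symbols) and microglia (lower symbols) of the 3 GL261 tumours on a log axis, with stars for tumour 80769. For Chi3l3, Retnla and Cd163 the star of BMDM stands far right of the other 2 tumours, for Cxcl9, Cx3cr1 and Tmem119 it stands left, and for C1qb and Tyrobp the 3 tumours coincide.

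Inflammatory mediators moved in both directions. Of 32 tested 19 were higher and 6 lower (median log2 fold change 2.63). Il1b, a gene chosen after its values were seen, was at 3623, 2641 and 1423 CPM against 100.3, 42.6 and 43.6 CPM (log2 fold change 5.36, adjusted p = 8.69e-07), and its natural antagonist Il1rn at 769, 757 and 596 against 1.07, 1.41 and 1.41 CPM (log2 fold change 9.09 ± 0.72 (SE), adjusted p = 1.37e-08). Il18bp, which binds IL-18, was at 278, 401 and 204 against 1.81, 2.08 and 2.61 CPM (log2 fold change 7.08, adjusted p = 3.80e-08), and the chemokine Cxcl16 at 1342, 1226 and 833 against 93.6, 86.2 and 99.3 CPM (log2 fold change 3.61, adjusted p = 9.48e-10). Ccl8 was at 503, 364 and 17596 against 0.202, 0.313 and 0.343 CPM (log2 fold change 14.37, adjusted p = 3.79e-05), and without 80769, again far above the other two, its log2 fold change was 10.51. Osm, an IL-6 family cytokine, was 5.82-fold higher (log2 fold change 2.54, adjusted p = 1.07e-05).

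Matrix and growth factor genes were mostly higher, while chemokine receptor and adhesion genes went both ways. Of 30 matrix genes 18 were higher and 4 lower (median log2 fold change 4.01), with the same counts without library 80769. Mmp13, a collagenase, was at 877, 391 and 677 CPM in BMDM and had 3 counts in all normal microglia, a ratio of 18331 with a counting interval of 6272 to 88891. Mmp14, the membrane-type protease that activates other proteases, was at 655, 703 and 439 against 38.7, 49.0 and 48.3 CPM, with 0.914 ± 0.377 CPM in monocytes (log2 fold change 3.72, adjusted p = 6.76e-09). Fn1, fibronectin, was at 426, 591 and 3875 against 3.09, 2.19 and 5.04 CPM (log2 fold change 8.88, adjusted p = 2.62e-07, and 7.17 without library 80769) and was chosen after its values were seen. Of 25 growth factor genes 14 were higher and 4 lower (1.23). Vegfa, the main driver of vessel growth, was at 229.9, 316 and 319 against 11.9, 5.6002 and 4.87 CPM (log2 fold change 5.27 ± 0.59 (SE), adjusted p = 6.56e-07), and Tgfa was lower, at 17.4, 28.8 and 41.5 against 159, 192 and 164 CPM (log2 fold change -2.55, adjusted p = 2.02e-05). Of 31 chemokine receptor and adhesion genes 16 were higher, such as Cxcr4 (log2 fold change 6.12, adjusted p = 3.58e-09) and Cd44 (log2 fold change 7.14, adjusted p = 6.15e-10), and 9 lower, such as the junction gene Jam2 (log2 fold change -5.80, adjusted p = 3.62e-08). Summed over these 31 genes, BMDM were lower, at 6650 to 7593 CPM against 16635 to 19190.5 CPM in normal microglia. Itgb1 was within 2-fold (log2 fold change -0.01, adjusted p = 0.963).

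Glycolysis and division separated BMDM from normal microglia as well. Of 29 hypoxia and glycolysis genes 24 were higher and 4 lower (median log2 fold change 1.64), and 19 and 4 without library 80769. Between BMDM and tumour microglia 3 of the 29 were higher and none lower, beside 10.7% and 6.81% of all genes. The list summed to 6969 to 9754 CPM in BMDM, 6635 to 9475 CPM in tumour microglia and 2642 to 2999 CPM in normal microglia. Ldha was at 1306, 1677 and 1707 against 315, 249.7 and 254 CPM (log2 fold change 2.52, adjusted p = 1.28e-08), Pkm2 (now Pkm) at 1353, 1893 and 1588 against 360.3, 332 and 336 CPM (log2 fold change 2.23, adjusted p = 1.54e-08) and Pfkp at 189, 203 and 264 against 3.39, 3.84 and 4.87 CPM (log2 fold change 5.76, adjusted p = 3.28e-08). Of 30 cell cycle genes 29 were higher and none lower (4.52), and again 29 and none without library 80769. Mki67 was at 105, 83.0 and 60.8 against 4.20, 2.86 and 4.05 CPM (log2 fold change 4.48, adjusted p = 1.33e-08) and Aurkb at 57.0, 34.7 and 30.9 against 1.14, 1.49 and 1.65 CPM (log2 fold change 4.84, adjusted p = 4.44e-09), while Pcna was within 2-fold (log2 fold change 0.30, adjusted p = 0.124). Against monocytes 29 of the 30 were higher too, beside 34.1% of all genes. Against tumour microglia 2 were higher and none lower (6.67% called, beside 17.5% of all genes).

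Nuclear receptors and ligands for T cells were mixed. Of 25 nuclear receptor genes 11 were higher and 5 lower (median log2 fold change 0.28), together 64.0% and near the 60.6% of all genes. The orphan receptor Nr4a2 was at 114, 92.5 and 142 against 1.61, 1.37 and 1.34 CPM (log2 fold change 6.33, adjusted p = 5.05e-10), and the retinoic acid receptor Rara at 18.5, 19.6 and 21.8 against 0.0336, 0.117 and 0.137 CPM (log2 fold change 7.63, adjusted p = 1.06e-08), with monocytes at 151 ± 22.4 CPM. The glucocorticoid receptor gene Nr3c1 was 3.98-fold lower (log2 fold change -1.99, adjusted p = 1.01e-07). Of 19 T cell ligand genes 7 were higher and 5 lower (0.65), together 63.2% and again near that share. Without library 80769, 9 of 20 were higher and 6 lower. Cd274, PD-L1, was at 272, 209 and 166 against 16.7, 19.0 and 19.1 CPM (log2 fold change 3.56 ± 0.37 (SE), adjusted p = 2.87e-07) and Cd40 at 110.0, 95.1 and 84.3 against 0.336, 0.196 and 0.480 CPM (log2 fold change 8.12, adjusted p = 7.77e-11). The checkpoint genes 4632428N05Rik, now Vsir (log2 fold change -2.70, adjusted p = 1.06e-06), and Havcr2 (log2 fold change -2.08, adjusted p = 8.42e-07) were lower, as was Cd86 (log2 fold change -1.12, adjusted p = 0.00275), which was chosen after its values were seen.

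Immediate early genes ran against BMDM. Of 28 dissociation stress and immediate early genes 16 were lower and 3 higher (median log2 fold change -1.38). Jun was at 255, 321 and 459 CPM in BMDM against 6279, 5765 and 5019.8 CPM in normal microglia (log2 fold change -4.04, adjusted p = 6.76e-08) and Egr1 at 563, 589 and 414 against 7415, 6907 and 5024 CPM (log2 fold change -3.63, adjusted p = 8.46e-07). These genes respond to handling of tissue, and Jun, Egr1 and Klf2 are also in the transcription factor list, where the part of this response was not tested.

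The largest single differences were of several kinds. Among the 12 largest rises, F7, coagulation factor VII, was at 145, 39.0 and 767 CPM and had no count in normal microglia (at least 9328-fold higher), with 80769 the highest. LOC100038947, at 189, 146 and 49.9 CPM, had 1 count there and was near the monocytes (235 ± 23.4 CPM). Moxd1 (348, 526 and 934 CPM), 4930550L24Rik (25.05, 42.0 and 43.6 CPM), Has2 (11.9, 32.1 and 65.9 CPM), Fam19a4, now Tafa4 (23.3, 40.7 and 36.4 CPM), and H19 (18.04, 44.1 and 32.5 CPM) had 3 or no counts in normal microglia and under 0.25 CPM in monocytes. Their means were higher in tumour microglia than in BMDM, as was the summed level of oligodendrocyte precursor or glioma markers, whose part in these genes was not tested. Among the 12 largest falls, the choroid plexus gene Ttr was at 0 in BMDM and at 123, 6.42 and 17.2 CPM in normal microglia (at least 1036-fold lower), and BC018473 at 0 against 0.101, 31.9 and 36.4 CPM, so both varied widely among normal libraries. The rest were even: Gpr165 at 149, 167 and 135 CPM, Csmd3 at 210.2, 199 and 234 CPM and Upk1b at 118, 190.2 and 158 CPM in normal microglia were each at 0.70 CPM or less in every BMDM library.

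Genes of the sort were compared with the labels. Ptprc, which codes for CD45, was at 1035, 803 and 476 CPM in BMDM and 527, 548 and 479 CPM in normal microglia and was not called (log2 fold change 0.57, adjusted p = 0.0963), but was called higher without library 80769 (log2 fold change 0.80). Flt3, whose promoter drives the reporter in progenitors, was at 14.1, 10.6 and 54.3 against 4.97, 5.37 and 6.89 CPM (log2 fold change 2.20, adjusted p = 0.0196), and its call was lost without BMDM 80769 (log2 fold change 1.07, adjusted p = 0.222) and without normal microglia 67572 (0.0688) or 67573 (0.0635). Ly6c2 and Itga4 were high in BMDM as given above, and microglia identity genes were high in the libraries labelled normal microglia.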

How the data were processed

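RNA of sorted cells was sequenced in 20 libraries, of which 3 of GL261 BMDM, 3 of normal brain microglia, 3 of GL261 microglia and 5 of Ly6C-high blood monocytes are described. Per the submitters' processing notes, CASAVA 1.8, STAR 2.5.0e, HTSeq and DESeq2 were named with the build mm10. The sources used here do not give the annotation or the strand setting, so genes on opposite strands that overlap, and near-identical copies (the Ly6, H2 and chitinase-like families), are uncertain. The deposited table holds whole-number read counts per gene symbol (23329 symbols, 21798 with a count). Against current symbols 20748 matched directly and 2330 by an older name.

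From these counts, edgeR 4.0.16 in R 4.3.3 was run with its quasi-likelihood test on all 20 libraries in their 6 groups, so that all groups shared 1 estimate of the spread. Filtering used filterByExpr with a minimum count of 10 and a minimum total of 15, scaling was TMM, and p-values were adjusted by Benjamini-Hochberg over the 15363 genes tested. CPM were taken over the TMM-scaled library size. Library distances used log2 CPM with a prior count of 2. Folds against a group without counts used a floor of 3 counts over the group, and intervals of ratios cover counting error only. The labels do not say whether libraries of a group came from separate animals, so p-values measure the spread between these libraries.

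The libraries, the 24 gene lists and the 14 marker lists were chosen with earlier results of these data known. Named genes were the 12 largest rises and 12 largest falls among genes that were called, averaged 20 CPM or more in a group and did not overlap between libraries, all members of the microglia identity and transcription factor lists, up to 6 members of each other list with the smallest p, list members within 2-fold and the 20 highest such genes, and genes of the sort. Lyz2, Ccr2, Fn1, Apoe, Spp1, Arg1, Il1b, Mrc1, Cd163, Folr2, Cbr2, Ctsd, Cd86 and Isg15 fall outside this rule. The marker lists not printed in the report were astrocyte (2 of 10 tested called higher and 5 lower in BMDM, 88.8 to 312 CPM in BMDM, 427 to 569 CPM in normal microglia), oligodendrocyte (5 of 10 and 4, 314 to 419.6 and 185 to 404 CPM), neuron (1 of 10 and 7, 8.06 to 18.5 and 23.3 to 39.0 CPM), endothelial (4 of 10 and 0, 114 to 359 and 59.9 to 75.1 CPM), pericyte or fibroblast (3 of 10 and 1, 21.2 to 48.6 and 8.26 to 16.3 CPM), T cell (8 of 9 and 1, median log2 fold change 4.46, 40.9 to 69.4 and 60.4 to 83.0 CPM, Cd3e and Cd8a at 0 in normal microglia, where Il7r, the lower one, held most of the sum), NK cell (7 of 9 and 0, 39.9 to 58.8 and 7.91 to 11.9 CPM), B cell (3 of 8 and 1, 10.1 to 18.5 and 25.4 to 40.5 CPM, Blk at 0 in both and Pax5 in normal microglia), red cell (1 of 4 and 0, 0.790 to 496 and 3.76 to 12.6 CPM) and platelet (3 of 8 and 2, 79.8 to 156 and 36.7 to 43.8 CPM). Same-numbered BMDM and microglia were taken, by their numbers, to come from the same tumour. Their deviations from the group means correlated at 0.39, 0.22 and 0.39 across genes, and those of differently numbered pairs at -0.34 to 0.08. Alternatives were DESeq2 1.42.0, limma-voom (limma 3.58.1), upper quartile scaling, no filter, fewer groups in the fit, each library left out and a tumour block. Simulated data for BMDM against normal microglia had 15052 genes tested and 200 genes changed. There the test recovered 28% of 2-fold and 64% of 4-fold changes, and 7 of 99 calls were false. These rates depend on the share of genes changed and cannot be carried over to the real data, where 60.6% of genes were called. Some members of the lists are not reported here by name.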

Additional observations from a re-analysis of the deposited data

Results flagged for a closer look

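In the 5 blood monocyte libraries the highest value stood apart from the others for 5 genes of the microglia lists, by the gap to its nearest neighbour relative to the whole range. These were P2ry13 at 81.1 CPM (median 28.0), Selplg at 1381 CPM (median 874), Cd33 at 252 CPM (median 96.4), Il7r at 16.6 CPM (median 6.57) and Ecscr at 0.502 CPM (median 0.188). Chance marks about 1 in 20 groups in this way. The groups of 3 libraries were too small for this check.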

How the results depend on the processing

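For BMDM against normal microglia, leaving out 1 library at a time gave 4359 to 4634 genes higher, 4103 to 4144 lower and 3694 to 3798 within 2-fold, and against monocytes 4877 to 5151 and 4108 to 4308. These counts stayed within 1.5 times under every alternative run. No paired analysis was possible because normal microglia share no replicate number with BMDM. Against tumour microglia the counts moved more. There were 599 higher and 234 lower with only the groups compared, 1768 lower with DESeq2, and 1098 to 1609 higher and 466 to 1183 lower with 1 library left out, the lowest being 466 without BMDM 80766, with 669 without tumour microglia 80767. The replicate block by tumour gave 1450 higher and 1032 lower. The cause of these moves was not tested. Distances to normal microglia and to monocytes were 1.77 and 1.71 with a prior count of 10, and 2.02 and 1.83 over genes at 20 CPM or more.

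Named genes kept call and direction in 263 of the 267 with an adjusted p from DESeq2 (4 gained a call, none lost one), 265 of 273 with limma-voom, 270 of 273 with upper quartile scaling, 271 of 273 with no filter, 257 of 271 with only the groups compared (14 gained a call) and 272 of 272 without the monocytes. Without BMDM 80769, 261 of 273 were kept, 5 gained and 5 lost a call (Retnla, Flt3, Gusb, Cbr2 and Folr2), and 2 changed sign: Cd163, whose log2 fold change ran from -1.71 to 7.44 over the fits with 1 library left out, and Cd200r1, which ran from -0.90 (adjusted p = 0.0147) to 0.33. limma-voom lost Chi3l3 (adjusted p = 0.283), Retnla (0.344), BC018473 (0.157), Cbr2 (0.254), Cd163 (0.518) and Folr2 (0.331). Ebp, Gusb, Il7r, Fcgr3, Gaa and Flt3 lost their call in at least 1 fit with a library left out. At 5077787 to 7801073 counts the monocyte libraries limit what can be said of genes near their floor.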
